A study of Danio rerio with 10 samples.

Results

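Polyadenylated RNA of the nucleus was compared with that of the cytoplasm in 36 hpf (hours post fertilization) sibling embryos of the zebrafish Danio rerio, of the strain TL. Each fraction is represented by 1 library. The siblings came from crosses of fn10a heterozygotes and carry the genotypes fn10a+/- and +/+ in a mixture whose proportions the labels do not give, so that some embryos held 1 copy of the mutant allele. The fractions were separated with the PARIS kit, which lyses cells in a mild detergent and spins down the nuclei, and were sequenced as unstranded libraries. How many embryos went into the fractions is not stated. The members are the genes with a mean RPKM (reads scaled by transcript length and by a read total of the file) of 1 or more over both files, 8946 of the 14563 gene symbols listed. For each of them an index was computed as log2((nuclear RPKM + 1)/(cytoplasmic RPKM + 1)) minus the value of the median gene, so that a positive index marks a transcript with a larger nuclear share than the median transcript and not one that lies mainly in the nucleus. The series holds 10 libraries in all: the 2 sibling fractions, the same fractions of fn10a mutants (fn10a-/-, 1 library each) and 6 whole-embryo libraries (2 each of wild-type TL controls, siblings and mutants, 30 embryos a library).

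A messenger RNA is transcribed, spliced and polyadenylated in the nucleus and then exported through the nuclear pores to be translated. The nuclear share of a transcript is known from other systems to be larger when it has been made recently or is held back during processing, and smaller when it is long-lived. Globin messages are a textbook case of stable cytoplasmic transcripts, and heat shock messages of rapidly induced ones. In whole-embryo fractions, how the cells of a tissue divided between the fractions and where a transcript lay within those cells cannot be told apart, nor can fewer cells of a type from less RNA per cell.

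The reads on listed transcripts numbered 14141991 in the sibling nucleus and 17696776 in the sibling cytoplasm, which were 33.5% and 41.7% of the read totals implied by the RPKM of each file. Both files listed most genes at similar levels (Spearman's rho across 8946 genes 0.90), and the median raw log2 ratio was -0.20. The nuclear library was less like the whole sibling embryos (rho 0.81 and 0.77 with replicates 1 and 2) than the cytoplasmic library was (0.88 and 0.91). The labels' fractions could be checked against 1 nuclear RNA only. The 7SK RNA, rn7sk, a noncoding regulator of transcription elongation that resides in the nucleus and lacks a poly(A) tail, had 30 and 44 reads in the nuclear and cytoplasmic files (2.21 and 3.22 RPKM, index -0.19), so this marker did not separate the sibling fractions. In the mutant fractions it stood at 44.7 RPKM in the nucleus and 7.85 in the cytoplasm. With 1 library a fraction there is no replicate check and no test, and a gene is called nuclear or cytoplasmic here only when its index is 1 or more, or -1 or less, a 2-fold difference from the median gene.

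By that rule 156 genes (1.74% of 8946) were nuclear and 475 (5.31%) were cytoplasmic, while 6869 (76.8%) lay within 0.5 of the median gene. With the deposited RPKM not centred on the median gene the counts were 82 and 640, and with a ratio of read counts they were 372 and 695. On the cytoplasmic side 120 genes had an index of -2 or less, and on the nuclear side 17 had an index of 2 or more. Among the 15 named genes with the highest indices were heat shock genes and a fast muscle myosin, and among the 15 with the lowest were apolipoprotein, plasma protein, globin and hatching enzyme genes. The counting interval of the ratio, which covers counting error only, was clear of the median gene for all 631 called genes, as it was for 5162 of the 8315 genes not called. The cytoplasmic genes were shorter than the rest, with a median transcript length of 1555 bases and a median genomic span of 9547 bases. The nuclear genes had medians of 2026 and 14579 bases, and all genes 1835 and 13564 bases.

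**Figure D1:**
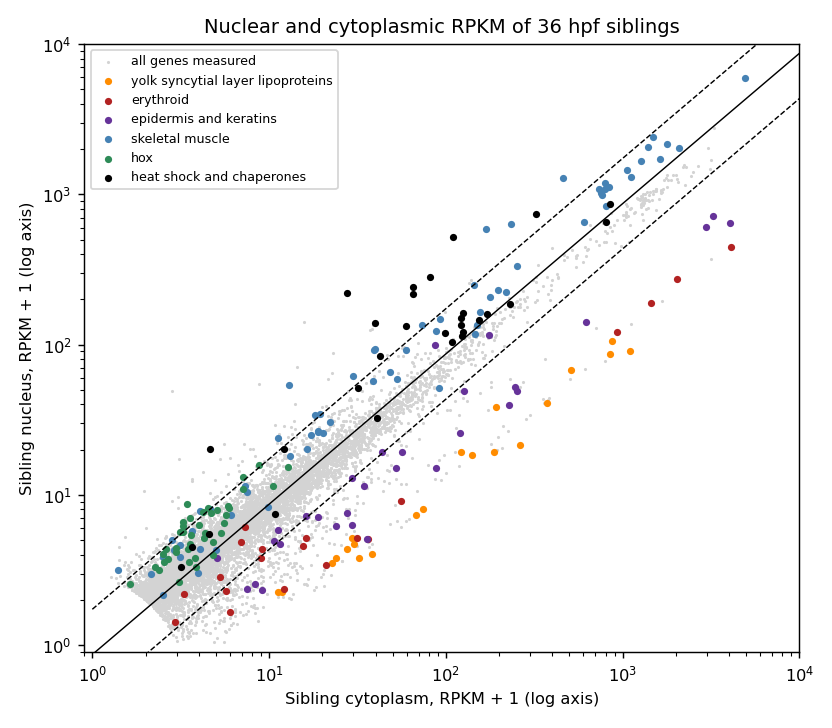
Nuclear (y axis) against cytoplasmic (x axis) RPKM + 1 of the 8946 genes in siblings, both axes logarithmic; the solid line is the median ratio, the dashed lines mark an index of 1 and -1, and coloured points are members of 6 gene lists. The yolk syncytial layer genes, most erythroid and most epidermal genes lie below the lower line across the whole range of levels, and part of the heat shock genes lies above the upper line.

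The yolk syncytial layer, the nucleated outer layer of the yolk cell, packages yolk lipid into lipoproteins and secretes plasma proteins into the embryo. All 21 measured members of its list were cytoplasmic, with a median index of -2.72 and a range of -3.42 to -2.1, against 5.31% of all genes; 11 further listed symbols were below the RPKM limit. apoa4, an apolipoprotein gene (danRer7 chromosome 16, 26153377 to 26155273, plus strand), stood at 20.3 RPKM in the nucleus and 262 in the cytoplasm and had the lowest index of all genes (-3.42). Of its reads in both files, 7.16% (95% exact Clopper-Pearson interval 6.74 to 7.59%) were nuclear, where the nuclear library supplied 44.4% of all listed reads of the pair.

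apoa2 and apoa1b, further apolipoproteins, had 89.4 and 85.1 RPKM in the nucleus against 1092 and 849.9 in the cytoplasm (indices -3.39 and -3.10). tfa, which encodes the iron carrier transferrin, had an index of -3.06, the fibrinogen chain gene fgg one of -3.03 and the protease inhibitor gene serpina1 one of -2.98. Low indices were found at high and low levels, from apoa2 down to fgg at 3.03 and 37.0 RPKM. In whole siblings apoa4 stood at 559.8 and 457 RPKM in replicates 1 and 2, above both fractions. Relative to the median gene the list's median was lower than whole siblings by 0.60 and 1.04 (log2, replicates 1 and 2) in the cytoplasm and by 3.53 and 3.91 in the nucleus. Of the 21 members 5 were at least 2-fold below both whole sibling libraries in both fractions, against 0.604% of all genes.

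Red blood cells of the fish keep their nucleus, and their list gave the next lowest median (-1.60). Of its 20 measured members 14 were cytoplasmic and none was nuclear, against 5.31% and 1.74% of all genes. The embryonic alpha globin gene hbae1 (danRer7 chromosome 3, 55972040 to 55972738, minus strand) stood at 444 RPKM in the nucleus and 4087 in the cytoplasm (index -3.00), with 9.75% (95% exact Clopper-Pearson interval 9.57 to 9.93%) of its reads nuclear. All 5 embryonic globins measured lay between -3.00 and -2.41. They are of alpha and beta type, and similar copies within a type may have had reads divided by the authors' counting. hbae1 lies inside a longer record on the opposite strand. slc4a1a, the anion exchanger of the red cell membrane, had an index of -2.62 and alas2, the first enzyme of erythroid haem synthesis, one of -2.41. The list was not uniform. Its transcription factor tal1 (-0.38), the haem enzyme genes hmbsa (-0.32) and fech (-0.85) and the spectrin gene sptb (-0.04) stayed inside the limits, and these last genes are among those chosen after their values had been seen.

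Of 30 measured epidermal genes 22 were cytoplasmic and none was nuclear (median -1.54), against 5.31% and 1.74% of all genes. krt4, a keratin of the outer epidermal layer (danRer7 chromosome 6, 39239362 to 39243883, minus strand), stood at 640.1 RPKM in the nucleus and 4027 in the cytoplasm (index -2.45), and the type I keratin gene cyt1 at 718 and 3226 RPKM (-1.96). anxa1b, which encodes an annexin, had the lowest index of the list (-2.61). The keratins of simple epithelia did not share it: krt8 had an index of -0.39 and krt18 of 0.39. col17a1a, the collagen of hemidesmosomes, lay with the epidermal genes (-1.77).

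In the hatching gland, whose cells release the enzymes that digest the egg envelope, the 3 secreted proteases were far cytoplasmic. he1a, a hatching enzyme gene, stood at 68.2 RPKM in the nucleus and 609 in the cytoplasm (index -2.93), he1b had an index of -2.83 and the cathepsin gene ctsl1b one of -2.85. Both hatching enzyme genes lie inside longer records on the opposite strand. The gland's transcription factors lay nearer to the median gene: xbp1 had an index of -0.27, foxa3 of -0.17 and prdm1a of 0.10. Over the 9 measured members the median was -0.86 and 4 were cytoplasmic, against 5.31% of all genes. The last of these 4 was agr2 (-1.38), a secretory pathway gene that also stands in the epidermal list. In the liver and gut list the gluconeogenic gene pck2 (2.04 and 13.3 RPKM, index -2.03) and the ceruloplasmin gene cp (-1.95) were low. The transcription factors prox1a (0.46) and ptf1a (0.55, the highest of the list) were among the 4 members above the median gene, and the other 10 lay below it. The median of the list was -0.66 over 14 members, 4 of them cytoplasmic, and moved to -1.31 with a mean RPKM of 5 or more, to -0.04 with no filter and to -0.30 with a pseudocount of 5.

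Pigment genes varied within their list. Of 33 measured genes of neural crest and pigment 4 were cytoplasmic, against 5.31% of all genes. All 4 make purines or pteridines, the raw material of reflective and yellow pigment. paics stood at 26.7 RPKM in the nucleus and 113 in the cytoplasm (index -1.83), atic at 9.58 and 42.8 (-1.84), gart had an index of -1.37 and gch2 of -1.13. The melanin genes tyr (-0.20) and dct (-0.60) and the neural crest factors sox10 (0.18) and foxd3 (0.69) were closer to the median gene or above it. Purine synthesis also serves every dividing cell, so these genes do not mark pigment cells alone.

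Some single genes lay far from related genes or from their list. pvalb9, a parvalbumin gene, had an index of -3.08 (18.9 RPKM in the nucleus and 193 in the cytoplasm), while the 4 muscle parvalbumins pvalb1 to pvalb4 lay between 0.17 and 0.68. Of the sodium pump genes of the kidney list, atp1a1a.2 had an index of -1.86 and atp1a1a.4 one of 0.76. cav1, the caveolin gene listed with the notochord, had an index of -1.53 in a list whose median was 0.59. In the myeloid list apoeb, an apolipoprotein gene that the yolk syncytial layer list holds as well, was the lowest (-2.72), and the lysozyme gene lyz had -0.97.

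**Figure D2:**
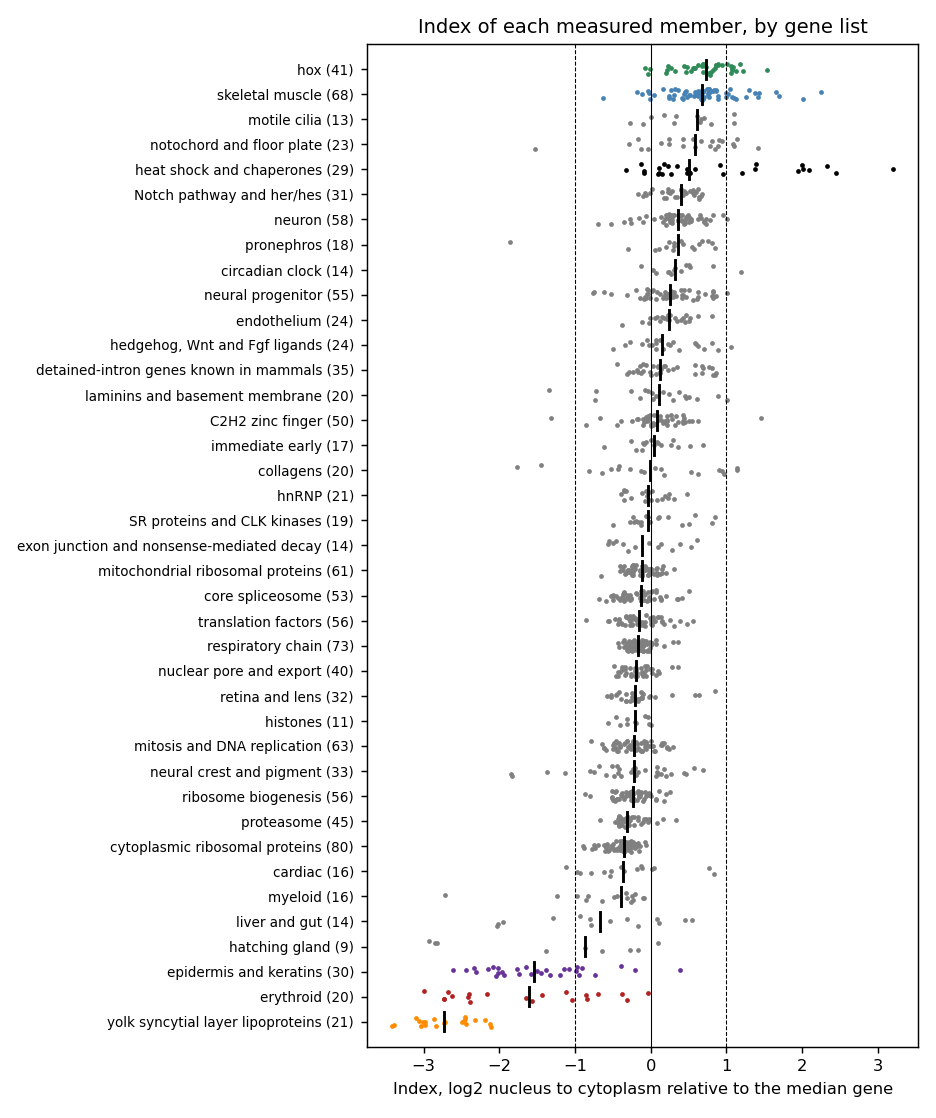
Index (x axis, log2) of every measured member of the 39 gene lists with 9 or more measured members, given in brackets, ordered by list median (black bar); dashed lines mark an index of 1 and -1. All members of the yolk syncytial layer list lie left of -1, the lists of housekeeping functions lie within the dashed lines, and the nuclear members of the heat shock list reach 3.21.

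Heat shock proteins and chaperones fold other proteins, and part of their genes is switched on within minutes of stress. Of 29 measured members 10 were nuclear, against 1.74% of all genes, and none was cytoplasmic (median 0.51, highest 3.21). hspa4a, which encodes an Hsp110 chaperone (danRer7 chromosome 21, 41543116 to 41577027, minus strand), had 29826 and 3621 reads in the nuclear and cytoplasmic files, 219 and 26.5 RPKM, and an index of 3.21; 89.2% (95% exact Clopper-Pearson interval 88.8 to 89.5%) of its reads were nuclear. The inducible Hsp70 gene hsp70 stood at 522 RPKM in the nucleus and 109 in the cytoplasm (index 2.45). It has 2 records and near-identical copies, so its reads may be divided. hsp70l had 137 and 38.5 RPKM (2.01), hsp90aa1.1, an Hsp90 gene of muscle, 241 and 64.2 (2.1), and the small heat shock gene hspb1 282 and 80.5 (2.0).

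The partners of these chaperones stood beside them outside the heat shock list. Among the 15 named genes with the highest indices were hspbp1 (2.84) and bag3 (2.69), which in mammals promote nucleotide release from Hsp70, stip1 (2.02), which links Hsp70 to Hsp90, ahsa1l (2.14), an activator of Hsp90, and unc45b (2.25), a chaperone of myosin. The highest of these 15 was pdcd4b (danRer7 chromosome 22, 32348658 to 32379168, minus strand), a relative of a mammalian inhibitor of translation, at 141 RPKM in the nucleus and 14.7 in the cytoplasm (index 3.38). The highest index of all, 4.32, belonged to a record with a placeholder name, si:dkey-4p15.3, which the RefSeq gene table now calls hspa8b; it had 47.8 RPKM in the nucleus and 1.81 in the cytoplasm. Other chaperones lay on either side of the limit. hspa8, an Hsp70 of unstressed cells, stood at 865 and 847 RPKM (0.24), hsp90ab1 at 651 and 799 (-0.09), and the 8 subunits of the CCT chaperonin lay between -0.09 and 0.48. The chaperones of the endoplasmic reticulum hspa5 (1.95) and hsp90b1 (1.37) and the mitochondrial hspd1 (1.21) were nuclear, as was hsc70 (1.96), listed under the usual symbol of a cognate Hsp70.

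Several of these transcripts stood higher in both fractions than in both whole sibling libraries. hsp70 stood at 3.70 and 1.46 RPKM in whole siblings, hsp70l at 0.626 and 0.433, hspbp1 at 2.57 and 1.42 and pdcd4b at 6.63 and 5.30. Of the 29 list members 7 were at least 2-fold above both whole sibling libraries in both fractions, relative to the median gene, against 1.13% of all genes. Other members were not above them: stip1 stood at 55.7 and 18.4 RPKM in whole siblings, the first of these above its 37.7 in the sibling cytoplasm. The whole libraries were made from Trizol-extracted RNA with a strand-specific method, so that this comparison crosses preparations; what part the preparation had was not tested.

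One whole-embryo library, wild-type control replicate 2, stood apart in the same genes. It held 2498 RPKM of hsp70, where the other 5 whole libraries held 1.46 to 8.03. For pdcd4b it held 116 RPKM, for hspa4a 144 and for hspbp1 80.7, against at most 8.33, 25.8 and 4.66 in the other 5. Relative to the median gene, 79 of the 8946 genes (0.883%) were at least 2-fold above each of the other 5 whole libraries there. Of the 156 nuclear genes 31 (19.9%) were among them, of the 17 with an index of 2 or more 11 were, and of the 475 cytoplasmic genes 3 were. The 31 included hspa5, hsp90b1 and hspd1, and hspa5 stood at 268 RPKM there against at most 76.3 in the other 5. That library enters none of the ratios of the sibling fractions, and the comparison was chosen after its values had been seen.

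**Figure D3:**
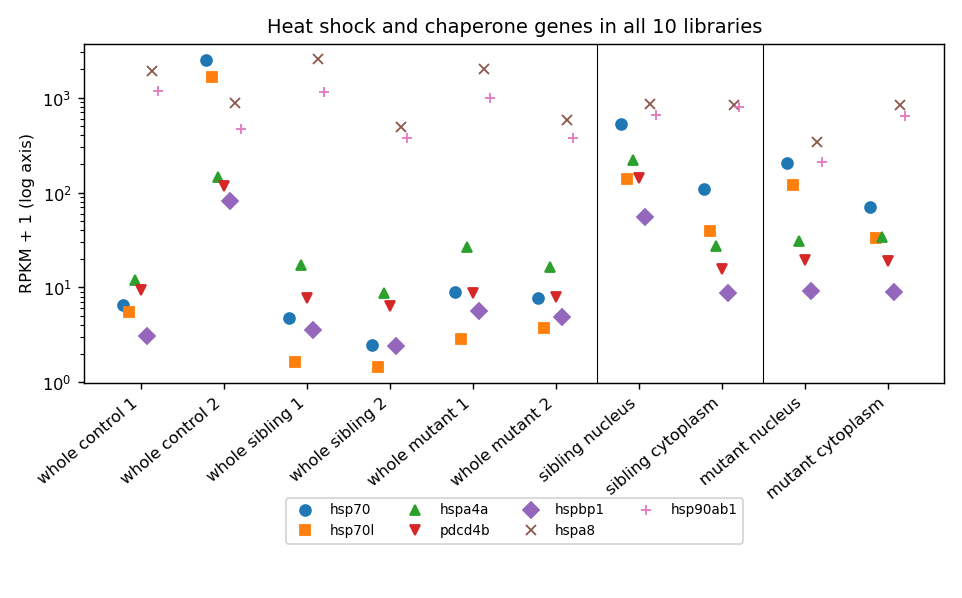
RPKM + 1 (log axis) of 7 genes (pdcd4b and genes of chaperones or their partners) in each of the 10 libraries, 1 point per gene and library. The 5 genes with a high index lie higher in the sibling nucleus than in the sibling cytoplasm, and reach their highest whole-embryo levels in control replicate 2, while hspa8 and hsp90ab1 differ little between the sibling fractions.

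Skeletal muscle transcripts lay on the nuclear side as a list. Of 68 measured members 14 were nuclear and none was cytoplasmic, against 1.74% and 5.31% of all genes. Of the members 62 lay above the median gene, and the median index was 0.68. The fast myosin heavy chain genes, which encode the motor of the thick filament, followed the myosin chaperone gene unc45b (2.25) at the top of the list. myhz2 (danRer7 chromosome 5, 33844138 to 33855192, plus strand) stood at 591 RPKM in the nucleus and 168 in the cytoplasm (index 2.01), myhz1.1 at 1281 and 457 (1.69), and myhz1.2 at 633 and 232 (1.65). These genes are near-identical neighbours whose reads may be divided. The slow myosins smyhc1 to smyhc3 lay between 0.67 and 0.74.

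Thin filament and small proteins were nearer to the median gene. The actin gene actc1b, the highest of the list in level, stood at 5900.2 RPKM in the nucleus and 4946 in the cytoplasm (index 0.46), the parvalbumin pvalb2 at 2023 and 2073 (0.17), and the tropomyosins lay between -0.63 and 0.49. The regulators myod1 (0.69) and myog (0.69) were close to the list median. Across the 68 genes the index followed transcript length (rho 0.50) more than genomic span (0.30); these are genes of 1 tissue in 1 pair of libraries, not independent points. Of the 68 muscle genes 15 were at least 2-fold above both whole sibling libraries in both fractions, against 1.13% of all genes, and the others were not, among them myhz2 with 241 and 161 RPKM in whole siblings. Cardiac genes differed from them in value, with a median of -0.37 over 16 members. The cardiac myosin light chain myl7 had an index of -0.97. The cardiac factor gata5 had -1.11 and was the only cytoplasmic member, where 5.31% of all genes were cytoplasmic.

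The hox genes, which set position along the body axis, had the highest list median (0.73). Of 41 measured members 10 were nuclear and none was cytoplasmic, against 1.74% and 5.31% of all genes. Of the members 38 lay above the median gene, and 7 further hox genes were below the RPKM limit. Their levels were low. hoxc6b had 221 and 71 reads in the nucleus and cytoplasm (7.66 and 2.45 RPKM, index 1.53, lying within a longer record on the same strand), hoxa5a 161 and 65 (1.23), and the most abundant, hoxb3a, 14.3 and 11.8 RPKM (0.46). Paralogue groups 9 to 13, the posterior genes, had a median of 0.89 over 17 genes, groups 5 to 8 one of 0.46 over 12 and groups 1 to 4 one of 0.66 over 12. By cluster the medians were 0.86 for hoxa, 0.45 for hoxb, 0.69 for hoxc and 0.86 for hoxd, over 8, 14, 13 and 6 genes. Within the list the index did not follow transcript length (rho -0.12).

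In the notochord and floor plate, the midline tissues that support and pattern the axis, the median was 0.59 over 23 members. Of the members 4 were nuclear, against 1.74% of all genes. Among the 4 were col2a1a, the main collagen gene of notochord sheath and cartilage (1.14), foxj1a, the master factor of motile cilia (1.1), and the matrix gene matn3a (1.09). The hedgehog ligand gene shha had an index of 0.89. Collagens ranged widely. col2a1a stood at 258 RPKM in the nucleus and 135 in the cytoplasm, and col11a2 (1.14), col9a1 (0.95) and col9a2 (0.97), its partners in cartilage fibrils, were near it, while the further partners col11a1a (94.1 and 98.6 RPKM, 0.14) and col11a1b (0.18) were not. The fibrillar collagens of skin and bone col1a1a (192 and 318 RPKM, -0.52) and col1a1b (-0.42), the fibrillar col5a3b (-1.45) and the epidermal col17a1a were lower. Over 20 collagens 2 were nuclear and 2 cytoplasmic, where 1.74% and 5.31% of all genes were, and the median was -0.01. The motile cilia list had a median of 0.61 over 13 members, with tubb4b lowest (-0.27) and 2 nuclear members, foxj1a among them. When a mean RPKM of 5 was required, tubb4b alone was left of this list, at -0.17 relative to the median gene under that filter.

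Nervous system genes lay mildly to the nuclear side. The medians were 0.36 for 58 neuronal genes, 0.26 for 55 genes of neural progenitors and 0.40 for 31 genes of the Notch pathway, with 50, 40 and 26 of them above the median gene, where 4473 of all 8946 genes were. In the neuronal and progenitor lists 1 gene each was nuclear, 1 of 58 and 1 of 55, near the 1.74% of all genes. In the progenitor list it was gli1 (1.01), a transcription factor of hedgehog signalling. Short neuronal and progenitor messages lay on the other side, such as stmn1a (-0.53) and fabp7a (-0.52). The Notch target genes her15.1 (36.8 and 26.5 RPKM, 0.66) and her2 (0.68) stood above the median gene, and hes6 below it (-0.17). Endothelial genes had a median of 0.24, retina and lens genes -0.20 and immediate early genes 0.05. No member of these lists was called, where 1.74% of all genes were nuclear and 5.31% cytoplasmic.

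Lists of basic machinery had medians below the median gene. All 80 measured cytoplasmic ribosomal protein genes were below the median gene, from -0.90 to -0.07 (median -0.35). None was called, where 1.74% of all genes were nuclear and 5.31% cytoplasmic. Their median length was 565.5 bases and their median level 1115 RPKM. For ribosome biogenesis these were 1961 bases and 9.57 RPKM. Over all genes, the median index was -0.20 in the shortest of 5 equal bins and -0.19 in the most abundant of 5. rps2 stood at 2025 RPKM in the nucleus and 3046 in the cytoplasm (-0.38) and rps26 at 452 and 971 (-0.90). Medians were -0.31 for the proteasome, -0.24 for ribosome biogenesis, -0.17 for the respiratory chain, -0.11 for mitochondrial ribosomal proteins, -0.15 for translation factors and -0.21 for histones, again with no called member. Lists of proteins that work in the nucleus lay on both sides. The medians were -0.13 for the core spliceosome, -0.19 for nuclear pore and export factors and -0.04 for hnRNP genes. For C2H2 zinc finger genes the median was 0.09, with 32 of 50 above the median gene and 18 below, and for hox genes it was 0.73.

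Transcripts that mammalian cells are known to detain in the nucleus with unspliced introns formed a further list. Of 35 measured zebrafish genes with such names 23 lay above the median gene, none passed 1 (1.74% of all genes did) and the median was 0.12. The highest was ogt.1, the O-GlcNAc transferase gene (24.1 and 14.8 RPKM, index 0.87, 4 records), followed by the splicing kinase gene clk2a (15 and 9.20 RPKM, 0.85); ddx5 (0.03) and the SR protein gene srsf5a (-0.06) were near 0. The files count reads per RefSeq record, and whether intronic reads entered is not stated.

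Of 379 symbols with a noncoding record, 338 of them microRNA genes, 13 passed the RPKM limit and 1 was nuclear (LOC794757, 5.45 and 2.62 RPKM, index 1.04). Their median was -0.17. The most abundant were rpl22l1, a record annotated as noncoding at a ribosomal protein gene (-0.57), and LOC795545 (-0.80). The 182 genes whose span equals the transcript length have no annotated intron. Their median was 0.09, against 0.00 for the 8764 others. Of the 182 genes, 4 were nuclear and 8 cytoplasmic, near the shares of all genes (1.74% and 5.31%). Records lying inside a longer gene had a median of -0.11 on the same strand (250 genes) and -0.02 on the opposite strand (178 genes), against 0.00 for the other 8518; the libraries are unstranded, so reads of such pairs cannot be told apart. Medians by chromosome ran from -0.06 to 0.06 over the 25 chromosomes.

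The index increased with transcript length. Over 8946 genes Spearman's rho was 0.27, a description across genes that share both libraries. The median index was -0.20 in the shortest of 5 equal bins (212 to 1202 bases), -0.04, 0.00 and 0.08 in the bins between, and 0.14 in the longest (2834 to 15886 bases). The quartiles moved with the median, from -0.43 and 0.05 in the shortest bin to -0.07 and 0.35 in the longest. Of the genes past the limits, 128 of the 1790 shortest and 43 of the 1789 longest genes were cytoplasmic, and 28 and 43 were nuclear. The second-shortest bin held 132 cytoplasmic and 22 nuclear genes, so neither count changed steadily with length. In the longest bin the genes with most reads were myhz1.1, myhz1.2 and atp2a1, the calcium pump of fast muscle (1454 and 1062 RPKM, index 0.66).

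Genomic span, from the start to the end of the record with introns, gave a rho of 0.17. Medians went from -0.10 in the shortest bin (up to 5570 bases) to 0.11 in the longest (33893 bases or more), where the genes with most reads were hspa4a and the collagens col11a1a (0.14) and col1a1b. Length and span are themselves related (rho 0.55). Within bins of span the rho with length was 0.12 to 0.31, and within bins of length the rho with span was -0.01 to 0.09, so that little was left of span at a given length. The index also declined with level (rho -0.25 with mean RPKM), from a median of 0.13 in the lowest bin to -0.19 in the highest. Within bins of mean RPKM the rho with length was 0.12 to 0.36, increasing with level. It was 0.25 without the 1282 genes of any list. Of 33 lists with 15 or more members it was positive in 27, with the highest values in the core spliceosome (0.65), translation factors (0.57) and nuclear pore genes (0.55), lists that hold no called gene.

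**Figure D4:**
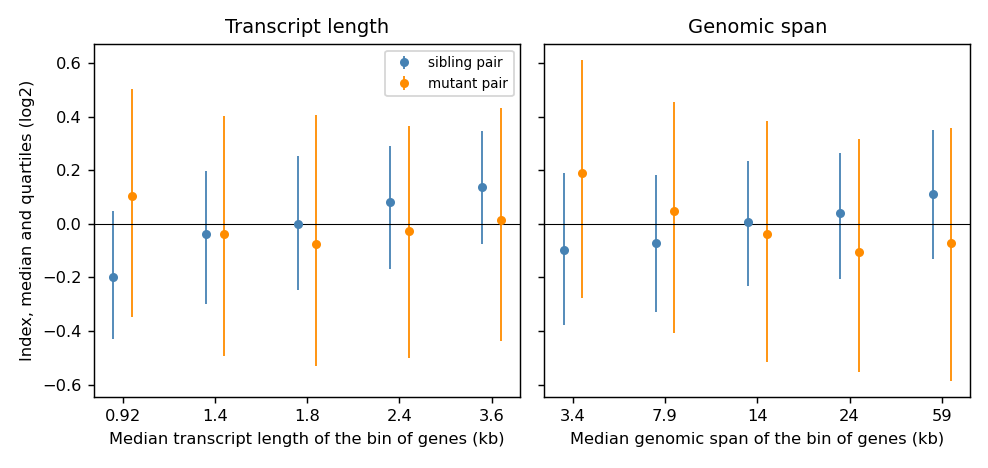
Median index with quartiles (y axis, log2) in 5 equal bins of genes by transcript length (left) and genomic span (right), labelled by the median size of each bin in kilobases, for the sibling pair and the mutant pair of fractions. The sibling medians go from -0.20 to 0.14 with length and from -0.10 to 0.11 with span, and those of the mutant pair go from 0.10 to 0.01 and from 0.19 to -0.07.

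The fn10a mutant fractions, which share no library with the sibling fractions, gave the index a second time in another genotype. The labels name no gene for fn10a; from knowledge of the study, it is a mutation of eftud2, a core splicing factor gene. The mutant nuclear library was shallower (7164408 listed reads, 19.2% of its total) and differs in genotype as well, so a difference between the pairs is not read. Across the 8946 genes the indices of both pairs had a rho of 0.31. On the mutant pair 494 genes (5.52%) were nuclear and 826 (9.23%) cytoplasmic. Of the sibling cytoplasmic genes 459 of 475 lay below the median gene in the mutant pair, and 251 were cytoplasmic in both, 52.8% of the sibling and 30.4% of the mutant list. Of the sibling nuclear genes 113 of 156 lay above it, and 37 were nuclear in both, 23.7% and 7.49% of the lists.

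The list medians of the mutant pair were -2.04 for the yolk syncytial layer, with all 21 members cytoplasmic again, -1.80 for erythroid genes (15 of 20), -0.86 for the epidermis (10 of 30), -1.12 for the hatching gland (5 of 9), 0.68 for skeletal muscle (17 of 68 nuclear) and 0.48 for hox genes (10 of 41 nuclear). For heat shock genes it was 0.19, with 8 of 29 nuclear. Over all genes of the mutant pair 5.52% were nuclear and 9.23% cytoplasmic. hsp70 had an index of 2.57 and hsp70l of 2.90, while hspa4a had 0.88, hspb8 0.12 and bag3 -0.28. Matrix genes lay elsewhere: collagens had a median of -1.05, with 11 of 20 cytoplasmic, and col2a1a stood at 19.4 RPKM in the mutant nucleus and 188 in the mutant cytoplasm (-2.18). Ribosomal protein genes had a median of 0.15 and immediate early genes of 0.96.

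**Figure D5:**
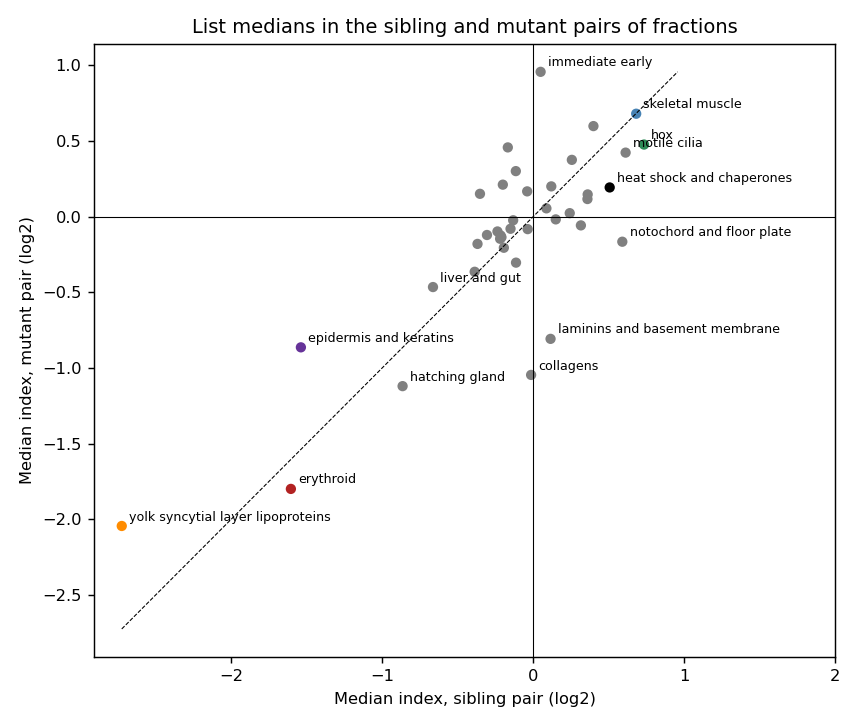
Median index of the 39 lists with 9 or more measured members in the sibling pair (x axis) and the mutant pair (y axis), both log2, with the line of equality dashed. The yolk syncytial layer, erythroid, epidermal and hatching gland lists are low in both pairs, skeletal muscle and hox are high in both, and collagens lie at -0.01 in the sibling and -1.05 in the mutant pair.

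Some tissues differed between the fractions and whole embryos more than between the fractions. Of 32 measured retina and lens genes 16 were at least 2-fold above both whole sibling libraries in both fractions. The lens crystallin gene crybb1 stood at 172 RPKM in the nucleus and 215 in the cytoplasm (index -0.11) but at 86.5 and 1.06 in whole siblings. The whole sibling libraries thus differed between themselves, and actc1b did likewise (2719.8 and 209 RPKM), so these folds depend on which replicate is taken unless both are named. Across all genes 101 (1.13%) were above and 54 (0.604%) below whole siblings in all 4 comparisons.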

How the data were processed

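The fraction libraries were unstranded and made of polyadenylated RNA separated with the PARIS kit, per the labels' protocols. The submitters' processing notes name TopHat2 2.0.8 as a tool and danRer7 as the build, and name no counting tool. Each deposited file lists 15865 RefSeq records with a position, a length, a whole-number read count and the authors' RPKM, per the file headers. The authors' RPKM is the count over the length, scaled by a read total that is fixed within a file and exceeds its listed reads, so that a larger share of reads outside the listed records lowers every RPKM of a file; the median of all genes was subtracted for that reason.

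Where a symbol has several records, the one with the largest sum of reads over the 10 libraries stands for it, which leaves 14563 symbols; 502 of the 8946 genes measured have several records. The index uses a pseudocount of 1 RPKM, which shrinks the ratio of low genes: the 1828 genes under a mean of 2 RPKM had medians of 108 nuclear and 124 cytoplasmic reads. Reads are not independent molecules, so intervals cover counting error only. No test was possible with 1 library a fraction. Fractions and whole siblings were compared on the same log2(RPKM + 1) scale, relative to the median gene. Current names were looked up in the RefSeq gene table (8643 genes matched). Computation used Python 3.11.15 with pandas 2.3.3 and scipy 1.17.1, and was tested on simulated counts; edgeR 4.0.16 supplied TMM factors for 1 alternative.

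The members, the 40 gene lists and the comparisons were chosen with earlier results of these data known. After values were seen, kinases, assembly factors and other genes caught by name alone were taken out of 5 lists. Named genes were the 15 highest and the 15 lowest indices among genes with a mean of 5 RPKM or more, 50 or more reads, a single record and no placeholder name; of each list the 2 members highest in RPKM and the 2 largest indices in size; the 6 most abundant noncoding records; and the 3 genes with most reads in the longest bins of length and span. Not every gene so taken is printed, and other genes named were chosen after their values were seen, as were the subgroups of hox, myosin, parvalbumin, tropomyosin, chaperonin and globin genes. Results of some genes are not reported here, though counts and list medians include them.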

Additional observations from a re-analysis of the deposited data

Results flagged for a closer look

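The sibling and mutant pairs of fractions differed in sign in the following values. In each case the difference was not tested, and the pairs differ in genotype and in depth. Spearman's rho of the index with transcript length was 0.27 in the sibling pair and -0.035 in the mutant pair. The latter value is small, and within bins of span the mutant rho with length was positive, at 0.034 to 0.080. Within bins of mean RPKM it ran from -0.22 to 0.023. The value of -0.22 came from the highest bin, where the sibling rho was 0.36. The rho with genomic span was 0.17 and -0.14. The median index of laminins and other basement membrane genes was 0.11 and -0.81, and that of notochord and floor plate genes 0.59 and -0.17. Without centring, the sibling median of laminins and other basement membrane genes was -0.09.

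Some genes picked by the naming rules and reported here had opposite signs, with an index of at least 0.5 in size in both pairs. On the nuclear side in siblings and the cytoplasmic side in mutants, these included the collagen gene col2a1a (1.14 and -2.18) and hoxb9a (1.07 and -1.45). The laminin gene lamb2 (1.01 and -0.93) and the sodium pump gene atp1a1a.4 (0.76 and -0.63) were others. On the opposite sides were rpa3, of the single-strand DNA binding complex (-0.65 in siblings and 0.55 in mutants), and the translation factor gene eif3ja (-0.85 and 1.02). So were dkc1 and nop58, of ribosome biogenesis (-0.80 and 1.19, and -0.87 and 0.59). Outside those rules, scn1ba (1.87 in siblings and -0.51 in mutants) and rbfox1l (1.65 and -0.52) also differed in sign, as did genes given under the other observations.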

How the results depend on the processing

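The number of nuclear genes was 156 as reported, 344 and 50 with pseudocounts of 0.1 and 5, 372 with a ratio of read counts and 82 without centring. The number of cytoplasmic genes was 475 as reported and 214 with a pseudocount of 5. With a mean RPKM of 5 or more it was 252, but out of far fewer genes, since the median over the 8946 genes was 4.63 RPKM. The lists with a median beyond 0.5 in either direction numbered 10 as reported, 5 with a pseudocount of 5 and 6 with no filter. The motile cilia median was 0.61 as reported. With a mean RPKM of 5 or more the list held tubb4b alone, at -0.17, which says nothing about its other members. The rho with genomic span was 0.11 with no filter, against 0.17; that with length stayed between 0.18 and 0.34 over the alternatives run. Added after the data were seen, the rho between sibling and mutant pairs was 0.31 as reported, 0.19 with a pseudocount of 0.1 and 0.17 with read counts, and the median of records inside other genes was -0.06 as reported, -0.27 without centring and -0.017 when RPKM was rescaled to listed reads and not centred. The yolk syncytial layer, erythroid and epidermal medians stayed below -1 under all alternatives run, at -2.93 to -2.31, -2.30 to -1.05 and -1.82 to -1.22; skeletal muscle stayed at 0.48 to 0.77, hox at 0.34 to 0.97 and heat shock at 0.30 to 0.65. Of the 67 named genes past 1 in size, 50 stayed past it with a pseudocount of 5 and 57 without centring. The planned comparison with N-terminal hydropathy of the proteins was not run, since no protein sequences were used here. No paired analysis was possible because each fraction has 1 library and no result comes from a test.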

Other observations

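Outside the lists, the cytoplasmic extreme held further genes of liver-type and yolk metabolism, chosen here after their values were seen. They were the gluconeogenic enzyme gene fbp1b (index -2.82), the peroxisomal oxidase genes hao1 (-2.81) and dao.1 (-2.75), the phospholipase gene pla2g12b (5.13 RPKM in the nucleus and 54.8 in the cytoplasm, -2.98), the complement gene c9 (-2.85) and zgc:161979, which the RefSeq gene table calls afp4 (-3.14). On the nuclear side outside the lists stood the sodium channel subunit gene scn1ba (1.87), the muscle splicing factor gene rbfox1l (1.65) and the deubiquitinase gene uchl1 (1.64). Of 14 measured members of the circadian list 1 was nuclear, against 1.74% of all genes: the repressor gene cry2b (6.50 and 2.77 RPKM, 1.2).

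Of the 475 genes cytoplasmic in siblings, 2 were nuclear in mutants, where 5.52% of all genes were. They were nfkbiaa, an inhibitor of NF-kappaB signalling (-1.01 and 2.41), and zgc:103761 (-1.26 and 1.13). Of the 156 genes nuclear in siblings, 9 were cytoplasmic in mutants, where 9.23% of all genes were. These 9 included the matrix genes hapln1a (1.16 and -2.72) and col11a2 (1.14 and -1.92) beside col2a1a. Both counts lay below the share over all genes. None of these differences was tested.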
